A study of Homo sapiens with 6 samples.

Results

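The glycolysis and hypoxia-inducible genes described here were 38 named rows of a table of 26485 genes. They were chosen by symbol for their pathway roles, with earlier results of these data known. They comprised 3 subunits of the hypoxia-inducible factors (HIF), 3 genes of HIF oxygen sensing and degradation, 2 glucose transporters, 15 genes of the glycolytic steps from glucose to pyruvate, 2 lactate dehydrogenase genes, 4 regulators of glycolytic flux and 9 other HIF targets. Of these, 36 passed the filter on low counts, which kept 14877 genes in all, and *ANKRD37* and *CA9* did not. RNA-seq was performed on 6 cultures of HEK293, a human embryonic kidney cell line transformed with adenovirus DNA, to compare cells depleted of the long noncoding RNA *HSALNG0134318* with control cells. The 3 knockdown cultures (replicates 1 to 3) had received a Smart Silencer against *HSALNG0134318*, which combines antisense oligonucleotides with small interfering RNAs, by transient lipid transfection. The 3 control cultures carry the labels NC and WT, the series describes them as negative controls, and the agent they received is not named in the labels. All 6 cultures came from 1 cell line and 1 silencer mixture was used, so that effects of the silencer other than loss of its target cannot be told apart from effects of the knockdown. The oxygen level and the time of harvest were not given in the labels.

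Glycolysis converts glucose to pyruvate in the cytosol and yields ATP without oxygen, and lactate dehydrogenase then converts pyruvate to lactate. HIF is a dimer of an oxygen-labile alpha subunit and the stable beta subunit ARNT. When oxygen is plentiful, prolyl hydroxylases of the EGLN family mark the alpha subunit for recognition by VHL and for degradation, and when oxygen is scarce the alpha subunit accumulates and induces glucose transporters, glycolytic enzymes and pyruvate dehydrogenase kinases. HIF is regulated mainly at the protein level, and HIF protein was not measured here.

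The libraries held 13900965 to 16869948 counts, and the transcript targeted by the silencer was not among the gene names, so its level could not serve as a check of the labels. Across the tested genes, the root mean square difference between cultures on the log2 scale was 0.285 to 0.329 within the knockdown group, 0.387 to 0.503 within the control group and 0.413 to 0.563 between groups. Control replicate 2 lay farthest from the other controls. It was the highest of the 3 controls for 22 of the 36 tested glycolysis and hypoxia-inducible genes. Control replicate 1 was highest for 8 and control replicate 3 for 6. For several genes, values without control replicate 2, or ranges with each culture left out in turn, are given below. All 7 HEK293 markers were detected with at least 10 counts in a culture, and their summed normalized count was 21944 to 27466 in knockdown and 19070 to 26095 in control cultures. None of the 3 immune, 3 endothelial or 2 hepatocyte markers reached 10 counts. Of the 4 fibroblast markers 3 did, with a sum of 640 to 889 in knockdown and 593 to 778 in control cultures. Of the 5 proximal tubule or podocyte markers 2 did, with a sum of 556 to 683 in knockdown and 801 to 1178 in control cultures, and their part in the results below was not tested.

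Of these genes, 6 differed between the groups at an adjusted p below 0.05 in the edgeR quasi-likelihood test. *PFKL* and *PDK3* rose in knockdown cultures, and *SLC2A3*, *PGAM1*, *ENO2* and *NDRG1* fell. The 4 lower calls among 36 genes (11.1%) stand beside 4.64% of all tested genes called lower, and the 2 higher calls (5.56%) beside 5.4% called higher. A negative log2 fold change, knockdown against control, was measured for 26 of the 36 genes and a positive one for 10. Over all 14877 tested genes, 7837 were negative and 7040 positive. The median of the 36 genes was -0.17, beside -0.02 over all tested genes. Without control replicate 2, the median of the 36 genes was -0.10, beside -0.00058 over all tested genes. In 13 of the 36 genes every knockdown culture lay below every control culture (36.1%, beside 15.8% of all tested genes), and in 4 every knockdown culture lay above (11.1%, beside 16.4%). Because the genes were chosen with earlier results of these data known, these shares describe the list and are not a test of it. The plot of log2 fold changes shows that the calls were scattered over the roles, with 1 transporter, 3 glycolytic enzymes, 1 kinase and 1 stress-response gene among them. In bulk RNA, a change in the number of cells that express a gene cannot be told apart from a change in RNA per cell.

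**Figure D1:**
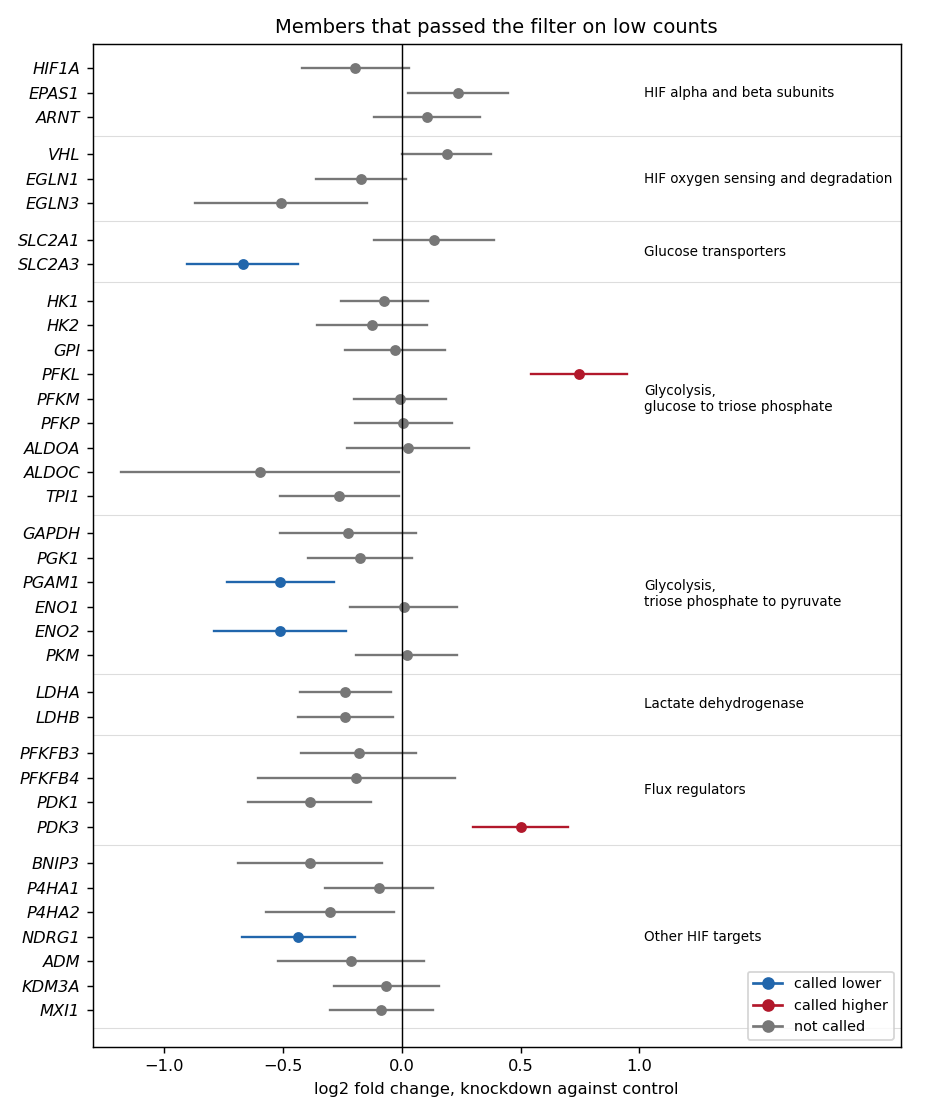
Log2 fold change of knockdown against control (x axis) for the 36 genes that passed the filter on low counts (y axis, grouped by role). Points are edgeR estimates from 3 against 3 cultures, bars are 95% confidence intervals, and colour marks genes called lower (blue), called higher (red) or not called (gray). *PFKL* at 0.75 and *SLC2A3* at -0.67 lie at the ends.

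The largest change was in *PFKL*, which encodes the liver-type subunit of phosphofructokinase, the enzyme of the committed step of glycolysis (GRCh38 chromosome 21, 44300051 to 44327376, plus strand). Its normalized counts were 4050, 3559 and 3657 in knockdown replicates 1 to 3 and 2085, 2378 and 2252 in control replicates 1 to 3. The lowest knockdown value lay well above the highest control value, and the difference of 3756 ± 260 from 2238 ± 147 (mean ± SD, n = 3 each) was a log2 fold change of 0.75 (SE 0.09, 95% confidence interval 0.55 to 0.95, adjusted p = 0.000738), or 1.68-fold. *PFKL* was called in all 15 alternative analyses. The muscle-type subunit *PFKM*, at 1317 ± 85.2 against 1324 ± 29.6, and the platelet-type subunit *PFKP*, at 2690 ± 201 against 2678 ± 189, gave log2 fold changes of -0.01 (95% confidence interval -0.20 to 0.19) and 0.01 (-0.20 to 0.21).

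Because the subunits assemble into tetramers, their proportions were compared per length, in TPM units (counts divided by the length of the union of each gene's exons and scaled to the same total in every culture). *PFKL* made up 44.3, 43.97 and 44.8% of phosphofructokinase TPM in knockdown replicates 1 to 3 and 31.8, 33.4 and 31.5% in control replicates 1 to 3. The share of *PFKM* was 19.2 ± 0.09% against 23.5 ± 1.44%, and that of *PFKP* 36.5 ± 0.45% against 44.3 ± 1.11%. The summed level of the family was 337 ± 19.9 TPM in knockdown and 269 ± 8.77 TPM in control cultures. The order of the subunits depends on the length used. With the length of the longest transcript, an alternative chosen after seeing the data, the *PFKL* share was 34.4 ± 0.41% in knockdown and 23.8 ± 0.82% in control cultures, and *PFKP* was the largest share in both groups, at 45.3 ± 0.47% and 52.5 ± 1.21%.

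*PDK3* encodes a pyruvate dehydrogenase kinase, one of the mitochondrial kinases that phosphorylate the pyruvate dehydrogenase complex and so hold pyruvate back from oxidation (chromosome X, 24465244 to 24550466, plus strand). Its normalized counts were 1578, 1722 and 1707 in knockdown and 1210, 1095 and 1235 in control cultures. The groups did not overlap, and the log2 fold change was 0.50 (SE 0.09, adjusted p = 0.00629). *PDK3* stayed below the threshold in all 15 alternative analyses, the largest adjusted p being 0.0499. *PDK1*, the paralog best known as a HIF target, had 524, 585 and 640 normalized counts in knockdown and 850, 713 and 725 in control cultures. All its knockdown values lay below all control values, with a log2 fold change of -0.39 (SE 0.12, adjusted p = 0.0613) that missed the threshold. It was called lower in 5 of 15 alternatives. These were no filter on low counts, the DESeq2 Wald test, both corrections for GC content and length, and the analysis without control replicate 2. *PDK2*, the family member with the most TPM in both groups, gave -0.09 (adjusted p = 0.636). Of the TPM of the 4 kinases, *PDK3* made up 25.8 ± 0.79% in knockdown and 18.6 ± 1.95% in control cultures and *PDK1* 10.6 ± 0.85% and 14.1 ± 1.68%, while the family sum was 132 ± 4.22 and 126 ± 3.83 TPM.

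Among the lower genes, *SLC2A3* had the largest change. It encodes GLUT3, a high-affinity glucose transporter (chromosome 12, 7919230 to 8019007, minus strand). Its normalized counts were 601, 525 and 547 in knockdown and 960, 851 and 850 in control cultures. Every knockdown culture lay below every control culture, and the log2 fold change was -0.67 (SE 0.11, adjusted p = 0.00308), with a call in all 15 alternatives. The more broadly expressed transporter gene *SLC2A1* (GLUT1) had 1174, 1177 and 1285 normalized counts in knockdown and 1071, 1283 and 953 in control cultures, which overlap, and its log2 fold change was 0.14 (SE 0.12, adjusted p = 0.490), with 0.26 without control replicate 2 and 0.04 without control replicate 3. Per length, *SLC2A3* made up 29.6 ± 2.02% of the TPM of both transporters in knockdown and 42.5 ± 4.17% in control cultures.

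*PGAM1* encodes phosphoglycerate mutase, which moves the phosphate group of 3-phosphoglycerate (chromosome 10, 97426191 to 97433444, plus strand). Its normalized counts were 2486, 2460 and 2283 in knockdown and 3058, 3911 and 3331 in control cultures. The groups did not overlap, and the log2 fold change was -0.51 (SE 0.10, adjusted p = 0.0105). GENCODE names 13 pseudogenes after *PGAM1*, of which 1 was in the table, and the treatment of reads that match several copies was not given in the sources used here. *ENO2* encodes gamma enolase, the neuronal isozyme of the step that yields phosphoenolpyruvate (chromosome 12, 6913745 to 6923698, plus strand), and had 571, 470 and 478 normalized counts in knockdown and 653, 822 and 691 in control cultures. Knockdown replicate 1 came closest to the controls, the groups did not overlap, and the log2 fold change was -0.51 (SE 0.13, adjusted p = 0.0268). The widespread alpha enolase *ENO1*, far more abundant per length, gave 0.01 (SE 0.10, adjusted p = 0.968), and *ENO2* was 2.71 ± 0.07% of enolase TPM in knockdown and 3.84 ± 0.25% in control cultures. Both *PGAM1* and *ENO2* were called in 13 of 15 alternatives and lost the call without knockdown replicate 2 (adjusted p = 0.0514 and 0.131) and without knockdown replicate 3 (adjusted p = 0.0737 and 0.132). Leaving out single cultures gave log2 fold changes of -0.59 to -0.41 for *PGAM1* and -0.60 to -0.41 for *ENO2*.

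*NDRG1*, a stress-response gene induced by hypoxia and by iron depletion, had 615, 572 and 595 normalized counts in knockdown and 794, 885 and 729 in control cultures. The knockdown values lay close together and below all 3 controls. The log2 fold change was -0.44 (SE 0.11, adjusted p = 0.0273), and -0.50 to -0.36 when single cultures were left out. It was the least stable of the 6 calls, kept in 10 of 15 alternatives and lost without any 1 of the knockdown replicates, without control replicate 1 and in 1 further analysis, with a largest adjusted p of 0.136.

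**Figure D2:**
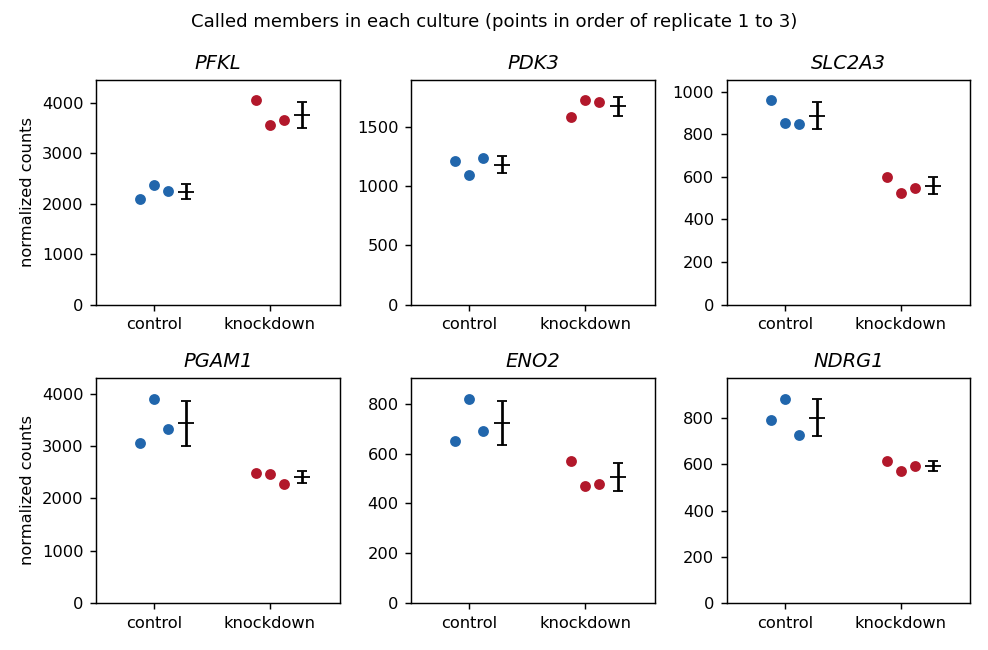
Normalized counts (y axis, linear, from 0) of the 6 called genes in the 3 control (blue) and 3 knockdown (red) cultures, in order of replicate 1 to 3. The cross and bar beside each group give its mean and SD. In each panel the groups do not overlap, and control replicate 2 is the highest control for *PFKL*, *PGAM1*, *ENO2* and *NDRG1*.

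Among the remaining genes from glucose to triose phosphate, none was called. The hexokinases, which trap glucose as its phosphate, gave -0.07 (*HK1*, SE 0.08) and -0.13 (*HK2*, SE 0.11). The isomerase *GPI* gave -0.03 and the main aldolase *ALDOA* 0.03, and both changed sign when single cultures were left out. The brain aldolase *ALDOC* had 32.8, 53.2 and 47.2 normalized counts in knockdown and 62.2, 85.7 and 52.5 in control cultures, a log2 fold change of -0.60 with the widest error of the list (SE 0.27, adjusted p = 0.177), which was -0.37 without control replicate 2. Triose phosphate isomerase, *TPI1*, was at 7866 ± 542 against 9439 ± 1437 (log2 fold change -0.26, adjusted p = 0.166), and gave -0.14 without control replicate 2.

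*GAPDH*, the glyceraldehyde phosphate dehydrogenase that served as reference gene in the study's qPCR, was the most abundant of the 38 genes per length, with a mean of 4586 TPM that ranked 5 among all genes. Its normalized counts were 30609, 28440 and 27915 in knockdown and 30347, 41859 and 29572 in control cultures. Control replicate 2 stood apart from the other 5 cultures. The log2 fold change was -0.23 (SE 0.13, 95% confidence interval -0.51 to 0.06, adjusted p = 0.296), and it was -0.05 without control replicate 2. GENCODE names 65 pseudogenes after *GAPDH*, of which 0 were in the table. *PGK1* (phosphoglycerate kinase), on chromosome X like *PDK3*, gave -0.18 (SE 0.10, adjusted p = 0.285) and -0.08 without control replicate 2, and *PKM* (pyruvate kinase) gave 0.02 (SE 0.10, adjusted p = 0.915).

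Both lactate dehydrogenase genes were lower in every knockdown culture than in every control culture without passing the threshold. *LDHA*, the subunit that favours lactate production, had 10634, 9777 and 9679 normalized counts in knockdown and 11603, 12414 and 11459 in control cultures (log2 fold change -0.24, SE 0.09, adjusted p = 0.109). *LDHB*, the heart-type subunit, had 11644, 10691 and 10275 in knockdown and 12123, 13496 and 12809 in control cultures (-0.24, SE 0.09, adjusted p = 0.122). Their proportion was steady, with *LDHA* at 31.4 ± 0.38% of their summed TPM in knockdown and 31.4 ± 0.73% in control cultures.

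The 17 genes of glycolysis and lactate formation together made up 1.27, 1.18 and 1.17% of all TPM in knockdown and 1.24, 1.42 and 1.26% in control cultures. The groups overlap, and the difference of -0.099 percentage points had an exact two-sided permutation p of 0.30, where 3 against 3 cultures allow no p below 0.10. The difference was -0.041 percentage points without control replicate 2.

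Of the enzymes that set the level of fructose 2,6-bisphosphate, the allosteric activator of phosphofructokinase, *PFKFB3* and *PFKFB4* in the list were not called. *PFKFB3* gave -0.18 (SE 0.11, adjusted p = 0.327) and *PFKFB4* -0.19 (SE 0.19, adjusted p = 0.559). *TIGAR*, outside the list, is given below.

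**Figure D3:**
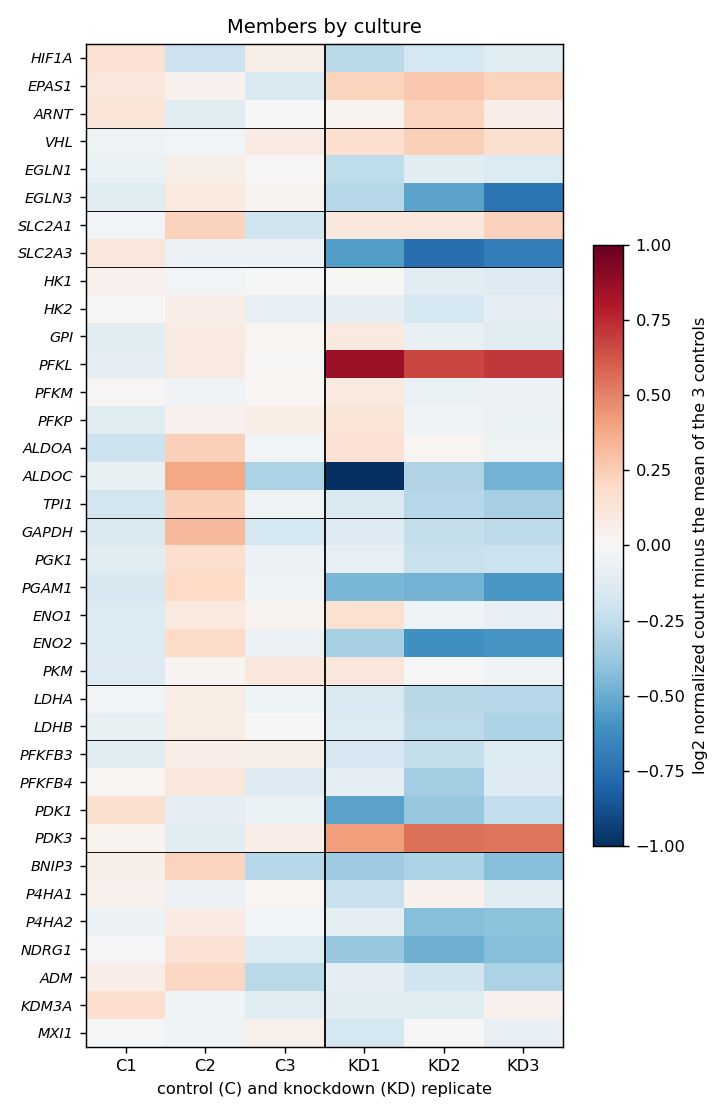
Log2 normalized count of each tested gene (rows, grouped by role) in each culture (columns, C1 to C3 control and KD1 to KD3 knockdown) minus the mean of the 3 controls, with red above and blue below that mean and end colours for differences of 1 or more. *PFKL* and *PDK3* are red and *SLC2A3*, *PGAM1*, *ENO2* and *NDRG1* blue in all 3 knockdown columns, and column C2 is red for most glycolytic genes.

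None of the 3 HIF subunits was called. *HIF1A*, the alpha subunit that drives most glycolytic targets, had 3301, 3534 and 3660 normalized counts in knockdown and 4402, 3456 and 4154 in control cultures. The groups overlapped through control replicate 2, which was lower than 2 of the knockdown cultures, and the log2 fold change was -0.19 (SE 0.10, adjusted p = 0.253). Without that culture it was -0.29, with an adjusted p of 0.0178, whereas it was -0.12 (adjusted p = 0.528) without control replicate 1 and -0.095 (adjusted p = 0.349) with the correction for GC content and length. *EPAS1*, which encodes HIF-2 alpha, had 1390, 1437 and 1391 normalized counts in knockdown and 1287, 1225 and 1068 in control cultures. All knockdown values were above all controls, and the log2 fold change was 0.24 (SE 0.10, adjusted p = 0.139). The beta subunit *ARNT* gave 0.11 (SE 0.10, adjusted p = 0.541). Per length, *EPAS1* made up 22.1 ± 0.89% of the TPM of both alpha subunits in knockdown and 17.5 ± 2.35% in control cultures.

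The genes of oxygen sensing were not called. *VHL*, the recognition subunit of the ligase that destroys hydroxylated HIF alpha, had 1778, 1862 and 1767 normalized counts in knockdown and 1524, 1549 and 1672 in control cultures (log2 fold change 0.19, SE 0.09, adjusted p = 0.179). The hydroxylase *EGLN1*, the main oxygen sensor of HIF, gave -0.17 (SE 0.09, adjusted p = 0.232). *EGLN3*, a hydroxylase that is itself induced by HIF, had 148, 125 and 110 normalized counts in knockdown and 166, 194 and 185 in control cultures, a log2 fold change of -0.51 (SE 0.17, adjusted p = 0.0765). In each of these 3 genes the groups did not overlap, *VHL* being higher and both hydroxylases lower in knockdown cultures. *EGLN3* was called lower in the 2 corrections for GC content and length alone among the 15 alternatives.

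All 7 tested genes among the other HIF targets had negative log2 fold changes, beside 7837 of all 14877 tested genes, and *NDRG1* was called. The log2 fold change of *KDM3A* changed sign when a single culture was left out. *BNIP3*, a mitophagy receptor, had 373, 385 and 357 normalized counts in knockdown and 501, 560 and 395 in control cultures, a log2 fold change of -0.39 (SE 0.14, adjusted p = 0.102). Its groups did not overlap, although control replicate 3 came close to the knockdown values, and without that culture *BNIP3* was called lower. GENCODE names 44 pseudogenes after *BNIP3*, of which 0 were in the table. The collagen prolyl 4-hydroxylase subunits gave -0.30 (*P4HA2*, SE 0.12, adjusted p = 0.141) and -0.10 (*P4HA1*, SE 0.10). The vasodilator peptide gene *ADM* gave -0.21 (SE 0.14, and -0.10 without control replicate 2), the histone demethylase *KDM3A* -0.07 (SE 0.10) and the MYC antagonist *MXI1* -0.09 (SE 0.10). *ANKRD37* had 1, 7 and 5 counts in knockdown and 11, 19 and 2 in control cultures, and 40.3% of its exon length overlaps *UFSP2* on the opposite strand, a gene with 241, 273 and 248 counts in knockdown and 238, 219 and 264 in control cultures. *CA9*, the carbonic anhydrase often used as a marker of hypoxia, had 1 count in control replicate 2 and 0 in the other 5 cultures. In those 5 cultures, a count of 0 allows a level of up to 0.193 to 0.216 CPM, for counting error only. Of the exon length of *CA9*, 35.7% overlaps *ARHGEF39* on the opposite strand, which had 330 to 453 counts.

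A loess correction for GC content and gene length, made library by library, brought the lower calls among the 36 genes to 9, by adding *EGLN3*, *TPI1*, *LDHB*, *PDK1* and *BNIP3*, and left the higher calls at 2. That correction called 9.75% of all tested genes lower and 8.78% higher. Without control replicate 2 there were 6 lower calls, with *HIF1A* and *PDK1* added, beside 8.34% of all tested genes called lower and 8.53% higher. Without knockdown replicate 3, *SLC2A3* was the only lower call, beside 1.56% of all tested genes called lower and 1.92% higher. *PFKL* and *PDK3* were the 2 higher calls in every alternative.

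Isozyme pairs were compared further through the log2 ratio of their counts within each culture, which does not depend on library scaling. Of 12 pairs, 6 had ratios that did not overlap between groups. Each of these had an exact two-sided permutation p of 0.10, the smallest that 3 against 3 cultures allow. Their adjusted p was 0.20 over the 12 pairs. No share of non-overlap was computed over other gene pairs. Of single tested genes, 15.8% lay below and 16.4% above all controls in every knockdown culture. The *PDK1*/*PDK3*, *SLC2A1*/*SLC2A3*, *PFKL*/*PFKM* and *ENO1*/*ENO2* ratios use the counts of a called gene and are not separate evidence. The *PDK1*/*PDK3* ratio differed most, at -1.52 ± 0.09 in knockdown and -0.63 ± 0.13 in control cultures. The *SLC2A1*/*SLC2A3* ratio was 1.12 ± 0.14 against 0.31 ± 0.25, and the *PFKL*/*PFKM* ratio was 1.51 ± 0.02 against 0.76 ± 0.12. The *ENO1*/*ENO2* ratio was 5.44 ± 0.04 against 4.92 ± 0.10. The *ALDOA*/*ALDOC* ratio was higher in knockdown cultures by 0.62, or by 0.37 without knockdown replicate 1, and the *HIF1A*/*EPAS1* ratio was 1.31 ± 0.07 against 1.74 ± 0.23. The knockdown minus control differences for *PFKP*/*PFKM*, *LDHA*/*LDHB*, *PFKFB3*/*PFKFB4* and *HK1*/*HK2* were 0.015, -0.00056, 0.012 and 0.049, and all 4 changed sign when single cultures were left out. The remaining pairs, *EGLN1*/*EGLN3* and *P4HA1*/*P4HA2*, differed by 0.35 and 0.21 with overlapping groups (exact permutation p = 0.20 and 0.30), and leaving out single cultures gave 0.22 to 0.50 and 0.08 to 0.38.

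**Figure D4:**
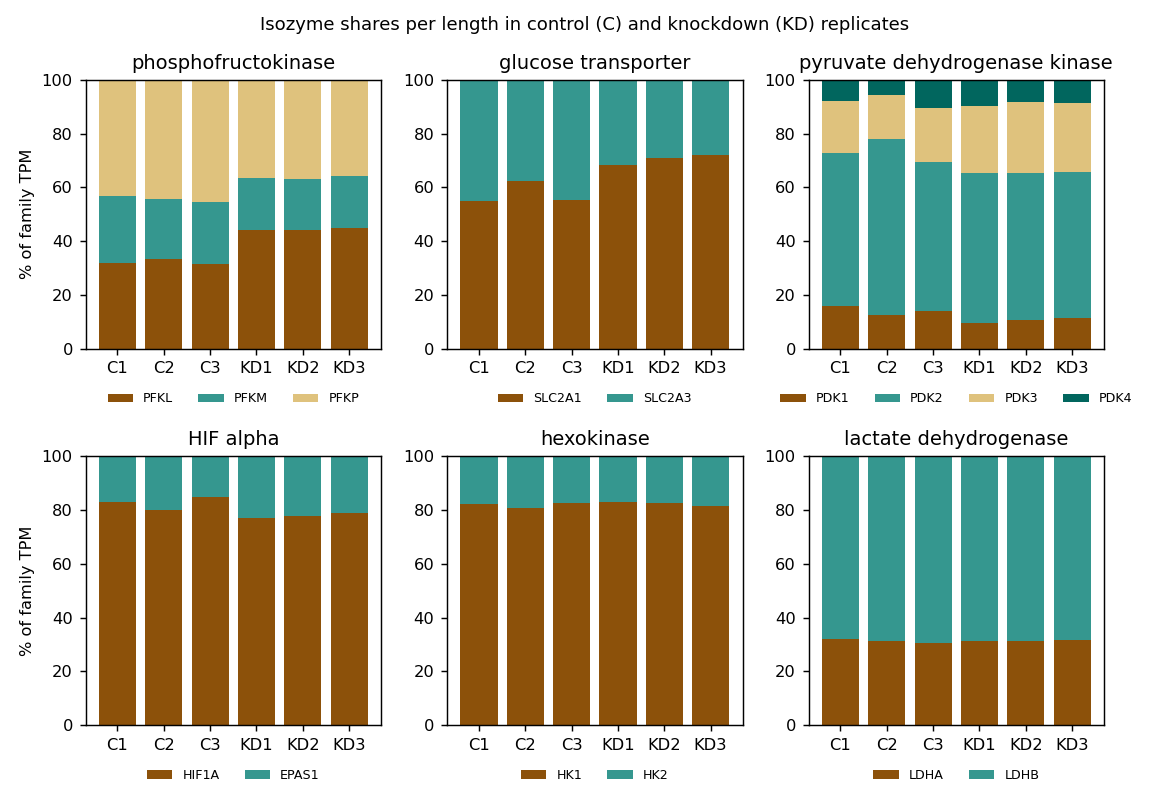
Share of each isozyme in the TPM of its family (y axis, percent) in control (C1 to C3) and knockdown (KD1 to KD3) cultures, with TPM from the union of exons and 1 stacked bar per culture. The *PFKL* segment is 31.5 to 33.4% in control and 43.97 to 44.8% in knockdown cultures, whereas the hexokinase and lactate dehydrogenase bars look alike in both groups.

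Of the 38 genes, 35 had promoters in the RefSeq table (GRCh38.p14, 250 bases before to 50 after each start), with 61 entries, and *VHL*, *SLC2A3* and *NDRG1* had none. The HIF core motif, searched as ACGTG or GCGTG on both strands, was present in 41 of the 61 entries (67.2%), beside 48.4% of all 35116 entries. ACGTG was in 39.3% of the entries of these genes and 21.4% of all, and GCGTG in 42.6% and 36.5%. The E-box CACGTG, which contains ACGTG on both strands, was in 13.1% and 7.26%. In 31 of the 35 genes at least 1 entry held a motif. The like share over all 27305 genes of the promoter table, which had 35116 entries, was not computed. The listed genes had more entries per gene, which raises such a count. Some entries of 1 gene overlap, as in *PFKM* and *KDM3A*, so that 1 site can be counted more than once. A match of 5 letters is a description of the sequence and not evidence of binding. The entries of 3 called genes are printed with that of *BNIP3*, an established HIF target with 6 motif starts in its window, and capitals mark the motif in either orientation (CACGT and CACGC on the opposite strand). They lie at chr21:44299803-44300102 (plus), chrX:24465036-24465335 (plus), chr12:6914330-6914629 (plus, inside the GENCODE *ENO2* gene) and chr10:131981874-131982173 (minus).
PFKL: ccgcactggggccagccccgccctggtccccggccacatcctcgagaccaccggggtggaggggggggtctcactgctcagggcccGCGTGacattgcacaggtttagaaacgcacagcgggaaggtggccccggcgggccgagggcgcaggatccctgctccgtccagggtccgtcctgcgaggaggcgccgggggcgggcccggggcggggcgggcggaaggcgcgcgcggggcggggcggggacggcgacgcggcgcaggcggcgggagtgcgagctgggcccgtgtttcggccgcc
PDK3: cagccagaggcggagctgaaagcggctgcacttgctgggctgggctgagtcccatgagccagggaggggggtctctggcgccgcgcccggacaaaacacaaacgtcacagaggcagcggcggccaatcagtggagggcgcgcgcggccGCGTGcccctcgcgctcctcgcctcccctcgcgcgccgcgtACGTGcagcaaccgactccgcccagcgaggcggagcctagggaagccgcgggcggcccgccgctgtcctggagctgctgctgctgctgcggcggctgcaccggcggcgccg
ENO2: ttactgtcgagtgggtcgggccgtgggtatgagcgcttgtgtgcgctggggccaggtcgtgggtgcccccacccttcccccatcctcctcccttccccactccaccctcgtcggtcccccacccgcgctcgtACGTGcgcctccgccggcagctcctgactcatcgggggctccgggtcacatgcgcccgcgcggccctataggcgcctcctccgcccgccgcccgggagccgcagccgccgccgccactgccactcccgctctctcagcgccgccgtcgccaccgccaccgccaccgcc
BNIP3: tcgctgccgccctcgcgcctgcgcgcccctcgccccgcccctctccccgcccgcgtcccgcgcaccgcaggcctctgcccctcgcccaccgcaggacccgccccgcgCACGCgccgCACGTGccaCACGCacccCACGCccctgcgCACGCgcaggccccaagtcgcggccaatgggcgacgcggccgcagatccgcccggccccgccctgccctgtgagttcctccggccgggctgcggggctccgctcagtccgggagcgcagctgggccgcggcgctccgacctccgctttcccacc
In *PFKL*, which rose, the window held 1 motif, GCGTG at position -164 from the start. In *PDK3*, which rose, it held GCGTG at -102 and ACGTG at -61, and in *ENO2*, which fell, ACGTG at -118. The single entry of *PGAM1*, which also fell, held 0 motifs, and it lies inside the GENCODE *PGAM1* gene.

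Beyond these 38 genes, 88 further genes of the same pathways were listed, also with earlier results of these data known. Of these, 75 passed the filter on low counts, 6 were called lower (8.0%, beside 4.64% of all tested genes) and 3 higher (4.0%, beside 5.4%). Their median log2 fold change was -0.09. Of 34 tested genes among 36 other hypoxia-inducible genes, 4 were called lower (11.8%, beside 4.64% of all tested genes) and 1 higher (2.94%, beside 5.4%). The lower genes were *VLDLR*, the very low density lipoprotein receptor, at 640 ± 36.7 against 961 ± 69.5 normalized counts (log2 fold change -0.59, adjusted p = 0.00544), *INSIG2*, a brake on sterol synthesis, at 283 ± 21.0 against 438 ± 58.1 (-0.63, adjusted p = 0.0139), *CXCR4*, a chemokine receptor, at 210 ± 6.48 against 323 ± 39.4 (-0.63, adjusted p = 0.0144), and *PLOD2*, a collagen lysyl hydroxylase, at 1588 ± 86.0 against 2123 ± 181 (-0.42, adjusted p = 0.0174). *GYS1*, the muscle glycogen synthase, was higher at 1347 ± 60.3 against 880 ± 29.6 (0.61, adjusted p = 0.00192). *VLDLR* and *GYS1* were called in all 15 alternatives, whereas *INSIG2*, *CXCR4* and *PLOD2* lost the call without any 1 of the knockdown replicates, and *INSIG2* and *PLOD2* also without control replicate 1. The growth factor *VEGFA*, named after its values were seen as the best known HIF target outside the list, gave -0.21 (SE 0.11, adjusted p = 0.275).

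Of 10 tested genes among 19 other glycolytic genes, 2 were called higher (20%, beside 5.4% of all tested genes) and 1 lower (10%, beside 4.64%). The sperm-type dehydrogenase *GAPDHS* was at 494 ± 26.1 against 311 ± 30.7 normalized counts (log2 fold change 0.67, adjusted p = 0.00629), but 62.7% of its exon length overlaps *TMEM147-AS1* on the opposite strand, and the strand setting of the counting was not given in the sources used here. The testis-type lactate dehydrogenase *LDHC* was at 43.2 ± 4.32 against 18.9 ± 6.42 (1.20, adjusted p = 0.0324). *TIGAR*, a fructose bisphosphatase induced by p53, fell to 856 ± 14.8 from 1166 ± 124 (-0.45, adjusted p = 0.0204). In the pentose phosphate pathway, which branches from glucose 6-phosphate, *RPE* (ribulose phosphate epimerase) was the 1 called gene of 7, at 685 ± 49.6 against 965 ± 100 (-0.50, adjusted p = 0.0173), with 23.8% of its exon length shared with *KANSL1L*. *LDHC*, *TIGAR* and *RPE* were each called in 11 of 15 alternatives and lost the call without any 1 of the knockdown replicates and without control replicate 1. None of 11 tested genes of the HIF pathway outside the list, with log2 fold changes from -0.50 to 0.37, and none of 13 genes of pyruvate entry into mitochondria, from -0.37 to 0.18, was called.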

How the data were processed

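RNA-seq counts of 3 knockdown and 3 control HEK293 cultures were analysed, which the series describes as biological replicates. The authors deposited whole-number counts of reads per gene without normalization. Per the labels, reads were processed with FastQC 0.11.9, Trim Galore 0.6.6, STAR 2.7.9a and featureCounts 2.0.1 on hg38 after a stranded mRNA preparation. The study's methods give other versions of STAR and featureCounts, and also list a removal of ribosomal RNA reads. The annotation, the strand setting and the treatment of multi-mapping reads were not given in the sources used here, so counts of genes with pseudogenes or antisense partners are uncertain. Besides *PGAM1*, *GAPDH* and *BNIP3*, GENCODE names pseudogenes after *LDHA* (6), *PKM* (5), *ENO1* (4), *TPI1* (4), *LDHB* (3), *SLC2A3* (3) and others.

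Genes were filtered with filterByExpr and tested with edgeR 4.0.16 (TMM, robust quasi-likelihood F test, no block) in R 4.3.3. P values were adjusted by Benjamini-Hochberg over all 14877 tested genes and called below 0.05, and the SE was derived from the F statistic. Normalized counts were scaled from each culture's effective library size to the mean of the 6 (15043151). TPM used GENCODE 44 exon lengths, with 23161 names matched by symbol, 1357 by synonym and 1967 unmatched. Isozyme ratios and the summed glycolysis share were compared by exact permutation (scipy 1.17.1), and isozyme shares of family TPM were not tested. Code was tested on simulated data.

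All 38 listed genes were named, and in each wider list at most 6 called genes per direction by smallest p. Members and lists were chosen with earlier results of these data known. The 15 alternatives of the gene tests were DESeq2 size factors, library sizes alone, no filter on low counts, a minimum of 10 counts in each culture, a replicate block, DESeq2 1.42.0, limma-voom 3.58.1, a loess correction (span 0.3) for GC content and length with and without the block, and each culture left out in turn.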

Additional observations from a re-analysis of the deposited data

How the results depend on the processing

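With correction for GC content and length, the numbers of all genes called lower and higher were 1451 and 1306, 9 of the glycolysis and hypoxia-inducible genes were lower and 6 of the wider pathway genes were higher. With the replicate block added to that correction, 1169 genes were lower, and these other counts were 7 and 5. When each culture was left out in turn, genes called lower ranged from 232 to 1240 and genes called higher from 285 to 1269, the listed genes called lower from 1 to 6, and the wider pathway genes called lower from 1 to 11 and higher from 2 to 7. Some values near 0 changed sign in the same way, with leave-one-out ranges of -0.090 to 0.015 for *GPI*, -0.056 to 0.022 for *PFKM*, -0.051 to 0.049 for *PFKP*, -0.074 to 0.16 for *ALDOA*, -0.062 to 0.059 for *ENO1*, -0.042 to 0.078 for *PKM* and -0.12 to 0.024 for *KDM3A*. Those of the ratios were -2.3e-05 to 0.091 for *HK1*/*HK2*, -0.051 to 0.054 for *PFKP*/*PFKM*, -0.023 to 0.025 for *LDHA*/*LDHB* and -0.061 to 0.11 for *PFKFB3*/*PFKFB4*. The correction for GC content and length gave -0.024 for *PFKP* with and without the block, -0.015 and -0.014 for *ENO1* and -0.022 and -0.024 for *PKM*, and without the block it gave 0.0058 for *LDHA*/*LDHB* and -0.017 for *PFKFB3*/*PFKFB4*. Library sizes alone gave 0.0032 for *PFKM*. The cause of these changes was not tested.

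The replicate numbers gave no sign of pairing, although 3 cultures a group are too few to exclude it. The labels number the cultures 1, 4 and 5 (knockdown replicates 1 to 3) and 10, 11 and 1 (control replicates 1 to 3). Deviations of same-numbered cultures from their group means correlated at -0.20, -0.11 and -0.04, and no culture correlated best with its own number. With the replicate block, 619 genes were lower and 714 higher, of which 3 and 2 were in the list, *NDRG1* losing its call. With 3 cultures a group, log2 fold changes of the listed genes had standard errors of 0.08 to 0.27, and a p above the threshold does not show that a gene did not differ.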
